A study of Mus musculus with 2 samples.

Results

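The 7 long non-coding RNAs Malat1, Neat1, Kcnq1ot1, Gm43221, Gm26532, Gm15655 and E230001N04Rik were followed in hypothalamic microglia, out of 31053 genes counted. They were chosen by measured values, with earlier results of these data in view: they were abundant or led a cluster of cells. Their levels per library and their relation to the mitochondrial share of the cells were part of that choice. These values are therefore a description, and no test was run on them. Microglia, the resident macrophages of the brain, came from pooled young wild-type mice, and the sort took place 20 hours after a plasma protein labelled with a dye had been injected. Flow sorting separated cells without the dye (plasma-negative) from cells with it (plasma-positive), and each sort gave 1 library made with a droplet kit that reads the 3' end of RNA and tags each molecule with a unique molecular identifier (UMI). There was no uninjected control among the samples used here, and both sorts came from injected mice. With 1 library per group, no difference between them has a replicate check.

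Most messenger RNAs are exported and translated, whereas many long non-coding RNAs stay in the nucleus. Malat1 is a nuclear RNA of the speckles, bodies rich in splicing factors. Neat1 is the scaffold of the paraspeckles, nuclear bodies that hold RNA-binding proteins. Kcnq1ot1 is an unspliced RNA transcribed from the paternal allele against the Kcnq1 gene, and it silences neighbouring imprinted genes in cis. The other members carry only clone or predicted-gene names, and no function is stated for them here.

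All 7 genes were placed on the mouse build GRCm38 with GENCODE release M21, which need not be the annotation the authors used. Malat1 (chr19:5795690-5802672) and Neat1 (chr19:5824708-5845478) are intergenic neighbours on the minus strand. Kcnq1ot1 (chr7:143203458-143296549, minus strand) lies antisense within Kcnq1. Gm43221 (chr3:109000024-109002094, plus strand) lies antisense within Fam102b. Gm15655 (chr8:115705078-115707233, plus strand) lies antisense to Maf, which encodes a transcription factor of macrophages. Gm26532 (chr8:84208920-84209609, plus strand) is intergenic and starts within the last bases of Mir24-2, with Mir27a 162 bp and Mir23a 328 bp upstream on the same strand. E230001N04Rik (chr17:28522720-28525398, plus strand) is intergenic, 5193 bp from Fkbp5 and 5408 bp from Armc12. Whether the authors' counting used strand is not given in the sources used here, so reads of an antisense member and of its host gene cannot be told apart.

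The kit captures RNA through stretches of A, so the last 60 bases of the annotated transcripts are shown, 5′ to 3′ on the transcript strand, with every AATAAA or ATTAAA, the motifs of the polyadenylation signal, in capitals. The longest transcript is shown for each member, together with the short form of Neat1.
Malat1-201: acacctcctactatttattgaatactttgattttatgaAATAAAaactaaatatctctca
Neat1-201, long form: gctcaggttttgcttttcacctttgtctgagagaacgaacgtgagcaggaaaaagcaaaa
Neat1-202, short form: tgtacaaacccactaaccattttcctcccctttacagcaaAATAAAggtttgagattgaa
Kcnq1ot1-201: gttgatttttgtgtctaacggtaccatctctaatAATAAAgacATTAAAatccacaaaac
Gm43221-201: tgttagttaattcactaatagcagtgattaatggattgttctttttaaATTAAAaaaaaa
Gm26532-201: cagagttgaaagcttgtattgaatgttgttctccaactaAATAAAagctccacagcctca
Gm15655-201: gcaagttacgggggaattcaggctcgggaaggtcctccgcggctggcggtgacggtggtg
E230001N04Rik-202: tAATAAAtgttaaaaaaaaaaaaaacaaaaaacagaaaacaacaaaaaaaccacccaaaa

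One of the motifs stood in the last 60 bases of the longest transcript for 5 of the 7 members, and Neat1 and Gm15655 were the exceptions. Only the transcript strand was searched, and no matches overlapped in the windows shown. The same windows held a motif in 72.5% of 18675 protein-coding genes and in 44.1% of 10717 genes of the long non-coding classes. The Gm15655 transcript is spliced from 2 exons and ends without a motif in this window. In the Kcnq1ot1 transcript of 93092 bases, 10 runs of at least 10 A were found, the longest of 41. The Malat1 and E230001N04Rik transcripts each held 1 such run, of 12 and 14 A, and the other members held none.

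Malat1 and Neat1 also share an unusual end, a tract of A reached after a U-rich stretch, at which the long forms are known to be cut instead of being polyadenylated. The next lines show 80 bases ending at the tract, which is in capitals. In Malat1 it lies 292 bases before the annotated end, and in Neat1 at the end of the long form.
Malat1, chr19:5795982-5796061, minus strand: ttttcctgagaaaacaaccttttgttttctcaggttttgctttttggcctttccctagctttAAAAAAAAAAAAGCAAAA
Neat1, chr19:5824708-5824787, minus strand: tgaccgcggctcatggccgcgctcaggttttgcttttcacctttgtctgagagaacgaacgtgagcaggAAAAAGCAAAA

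The filters left 9860 cells in the plasma-negative library (34534518 UMIs) and 10362 cells in the plasma-positive library (41984977 UMIs). The median cell held 3270.5 and 3753 UMIs, and 1.08% and 1.27% of a median cell's UMIs came from mitochondrially encoded genes (mt- genes). The cells matched their label: 11 of 11 microglia markers were found in 64.4% to 99.6% of plasma-negative cells and in 68.0% to 99.8% of plasma-positive cells. The median over 50 markers of other cell types was 0.0203% and 0.0290% of cells. The most frequent of these was Cd79b, in 14.3% and 16.4% of cells. Cell barcodes were not analysed here, so barcodes shared between the libraries were not counted.

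Malat1 was by far the most abundant member in these microglia. Levels are counts per 1000000 UMIs of the library (CPM). They are not corrected for gene length, so each member is compared only with itself. Malat1 stood at 65694 CPM in the plasma-negative library and at 54074 CPM in the plasma-positive library, which is 6.57% and 5.41% of all UMIs. It was found in 99.6% and 99.5% of cells. Kcnq1ot1 stood at 315 and 281 CPM and had a UMI in 40.1% and 41.0% of cells. The remaining members were found in 12.6% to 18.4% of cells. Their levels were 61.0 and 51.5 CPM for Neat1, 62.5 and 46.8 CPM for Gm43221, 63.5 and 49.4 CPM for Gm26532, 57.9 and 52.9 CPM for Gm15655, and 52.0 and 38.8 CPM for E230001N04Rik, plasma-negative first.

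Because the plasma-positive cells were deeper, each cell was also reduced at random to 1000 UMIs, which left out 796 plasma-negative and 603 plasma-positive cells below that depth. At this depth Kcnq1ot1 had a UMI in 20.9% of plasma-negative cells (exact binomial 95% interval 20.1% to 21.8%) and in 18.9% of plasma-positive cells (18.2% to 19.7%). The order of the libraries for Kcnq1ot1 was thus the reverse of that at full depth, as it was for Gm15655. E230001N04Rik had a UMI in 5.28% and 3.79% of the thinned cells, Gm43221 in 5.68% and 4.43%, and Gm26532 in 6.01% and 4.81%. Gm15655 stood at 5.63% (5.16% to 6.12%) and 5.11% (4.68% to 5.57%), with overlapping intervals. No cell type that lacks these RNAs was present in number, so the part of free RNA in these shares was not measured.

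All 7 members were lower in the plasma-positive library. The log2 ratio of plasma-positive over plasma-negative CPM was -0.42 for E230001N04Rik (95% interval -0.52 to -0.33) and -0.42 for Gm43221 (-0.51 to -0.33). It was -0.36 for Gm26532, -0.28 for Malat1, -0.24 for Neat1, -0.17 for Kcnq1ot1 and -0.13 for Gm15655 (-0.22 to -0.04). All these intervals lie below 0, and they cover counting error only, not differences between cells, mice, sorts or library preparations. The median over the 3540 genes with at least 50 CPM in a library was -0.03. A level at least 1.2-fold lower was reached by 4 of the 7 members (E230001N04Rik, Gm43221, Gm26532 and Malat1), and by 0.65% of these 3540 genes; 0 members and 0.678% of the genes were that much higher. Malat1 fell short of 1.2-fold in 6 of the 12 alternative settings, and the other members in this count in 0 of 12. Counted from the lowest ratio, E230001N04Rik stood at place 1, Gm43221 at 3, Gm26532 at 4 and Malat1 at 16. As the members were chosen with this contrast known, nothing is read from their places.

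**Figure D1:**
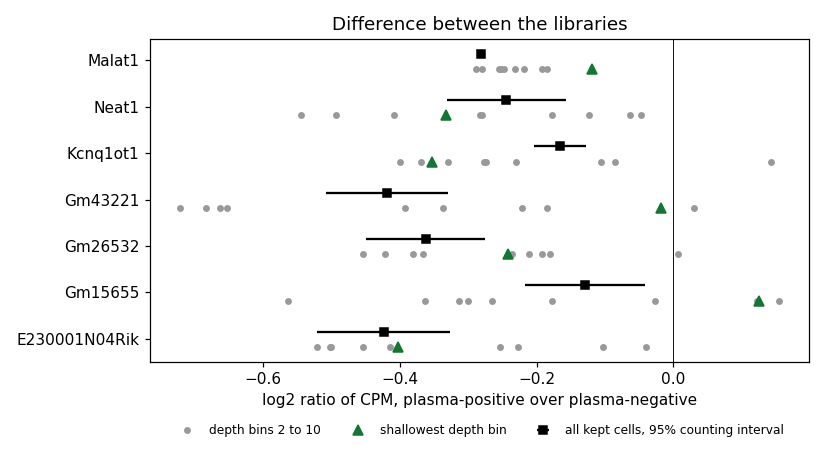
Log2 ratio of CPM between the libraries (x axis, plasma-positive over plasma-negative) for each member. Black squares with bars are all kept cells with the 95% counting interval, all left of 0; grey points are depth bins 2 to 10, and the green triangle is the shallowest bin, which lies near 0 for Gm43221 (-0.02) and right of 0 for Gm15655 (0.13).

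The lower levels were also seen when cells of like depth were compared. Cells of both libraries were divided at the pooled deciles of UMIs per cell, and the ratio was taken within each of the 10 bins. Malat1, Neat1 and E230001N04Rik were lower in the plasma-positive library in all 10 bins, Kcnq1ot1, Gm43221 and Gm26532 in 9, and Gm15655 in 7. For Malat1 the 10 ratios ran from -0.29 to -0.12, and each interval lay below 0. For Gm43221 they ran from -0.72 to 0.03. Division by the mitochondrial share gave the same for Malat1, with ratios from -0.47 to -0.18, and Gm26532 and E230001N04Rik were also below 0 in 10 of 10 bins, Kcnq1ot1 and Gm43221 in 9 and Neat1 in 8. Gm15655 was below 0 in 6 of those 10, with a lowest ratio of -0.53 and a highest of 0.08.

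Within a library, Malat1 varied widely from cell to cell. The median cell gave 6.64% of its UMIs to Malat1 in the plasma-negative library and 5.39% in the plasma-positive library. From the 5th to the 95th percentile the share ran from 2.81% to 17.4% and from 1.92% to 14.9%, with a maximum of 34.1% and 32.3%. In thinned cells the variance of Malat1 counts was 14.8 and 15.5 times the mean. That ratio was 1.73 and 1.55 for Kcnq1ot1, 1.23 and 1.30 for Gm43221, and 1.02 to 1.11 for the other 4 members, where 1 is what random sampling of equal cells would give. For the same relative spread between cells, this ratio is larger where the mean count is larger. The thinned mean was 67.3 and 56.1 UMIs for Malat1, 0.30 and 0.26 for Kcnq1ot1, and 0.04 to 0.06 for the rest. The ratios therefore do not rank the members by how much they vary.

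**Figure D2:**
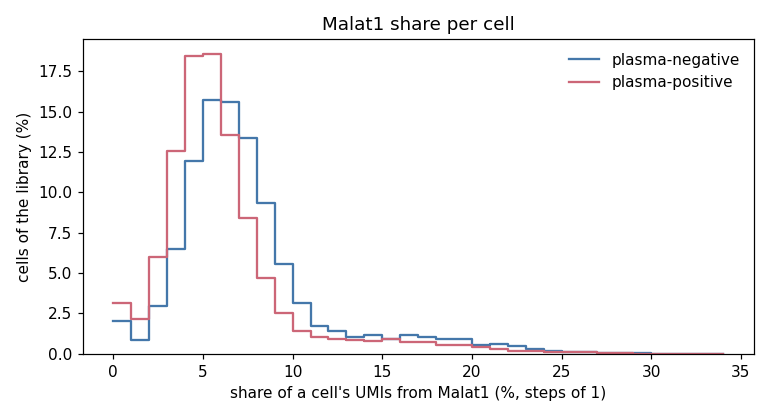
Share of a cell's UMIs that came from Malat1 (x axis, in steps of 1%) against the share of the library's cells (y axis, %), one line per library. Both lines show 1 main peak, a small group of cells under 1% and a long shoulder above 12%; the plasma-positive peak (median 5.39%) lies left of the plasma-negative one (median 6.64%).

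Cells at the 2 ends of this distribution differed in the other members too. The limits of 1% and 12% were set after the distribution had been seen. Cells with over 12% Malat1 numbered 1101 in the plasma-negative library (11.2%) and 778 in the plasma-positive library (7.51%), and their median depth was only 906 and 914 UMIs. Cells with under 1% numbered 200 (2.03%) and 327 (3.16%), with a median of 1767 and 2030 UMIs. Of these, 44 and 55 cells had no Malat1 UMI at all. Cells with at least 4 microglia markers were 199 of the 200 and 325 of the 327 with little Malat1.

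In cells poor in Malat1, most other members were nearly missing. To keep Malat1 itself from setting the values, CPM in the following comparison were computed over UMIs other than Malat1. Kcnq1ot1 gave 3 UMIs of 392133 (7.65 CPM, 95% interval 1.58 to 22.4) in the plasma-negative cells with under 1% Malat1, against 327 CPM in cells with 1% to 12%. Among plasma-positive cells it gave 14 UMIs (17.97 CPM, 9.83 to 30.2) against 293 CPM. Gm43221 had 0 UMIs in both libraries, where 3 counts would be 7.65 and 3.85 CPM, against 51.1 and 39.8 CPM. E230001N04Rik had 0 and 4 UMIs, Neat1 1 and 7, and Gm26532 6 and 9.

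Gm15655 was the exception. Its level in cells poor in Malat1 was 58.7 CPM (37.2 to 88.0) in the plasma-negative library, against 57.5 CPM in cells with 1% to 12%. Among plasma-positive cells it was 33.4 CPM (21.8 to 48.9) against 52.9 CPM. These cells also gave more UMIs to ribosomal protein genes, 17.7% and 18.1% against 9.58% and 10.4%, and more to mt- genes, 2.86% and 2.75% against 1.22% and 1.45%. The part of these differences in the members' levels was not tested.

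At the other end, all 6 remaining members were higher in cells with over 12% Malat1 than in cells with 1% to 12%, in both libraries. Gm43221 stood at 583 and 642 CPM, Kcnq1ot1 at 785 and 807 CPM, and Gm15655 at 201 and 255 CPM. Neat1 stood at 166 and 143 CPM, Gm26532 at 160 and 170 CPM, and E230001N04Rik at 109 and 81.5 CPM. Ribosomal protein genes gave 3.42% and 2.78% of the UMIs there. Most of these cells, 83.5% and 84.4%, were in the shallowest of 10 bins of cells by depth.

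As a share of UMIs, all 7 members were highest in the shallowest cells, those with the fewest UMIs. This comparison was added after the data had been seen, and it overlaps with the choice of the members, since 3 of them led a cluster of these cells earlier. The shallowest bin (at most 1416 UMIs) held 1127 plasma-negative and 896 plasma-positive cells, which is 11.4% and 8.65% of the libraries. In it, Malat1 reached 158019 and 145460 CPM, against 58085 to 67493 CPM in the other 9 bins of the plasma-negative library and 48042 to 57263 CPM in those of the plasma-positive library. The step lay between bins 1 and 2, and no later bin came near the shallowest one. These levels are shares of a smaller total in cells with fewer UMIs. In counts, Malat1 gave 155089 UMIs in the 1127 plasma-negative cells of bin 1 and 160041 in the 1174 of bin 2. The plasma-positive counts were 115351 in 896 cells and 97219 in 849 cells.

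Gm43221 showed the largest step of the 7. It stood at 611 CPM (95% interval 563 to 662) and 604 CPM (551 to 661) in the shallowest bin, against 46.5 and 36.1 CPM over all other cells, a ratio of 13.1 and 16.7. The shallowest bin held 2.84% and 1.89% of all UMIs, but 27.8% and 24.4% of those of Gm43221. At this depth 36.02% and 34.7% of cells had a Gm43221 UMI, against 14.1% and 12.6% of the deeper cells. The host gene of Gm43221 on the opposite strand, Fam102b, stayed nearly level, with a log2 ratio of shallowest over deepest cells of -0.01 and 0.06.

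Gm15655 stood at 190 and 207 CPM in the shallowest bin and at 54.1 and 49.99 CPM in the others, a ratio of 3.51 and 4.14. Maf, on the opposite strand, had log2 ratios of shallowest over deepest cells of -0.08 and 0.03, so that its level did not rise there as that of its antisense RNA did. Kcnq1ot1 stood at 696 and 545 CPM against 304 and 276 CPM. It was lowest in bin 2 or bin 3, at 213 and 211 CPM, and higher again in the deepest cells, at 362 and 341 CPM. Neat1 reached 137 and 108 CPM, Gm26532 142 and 120 CPM, and E230001N04Rik 91.7 and 69.4 CPM, each 1.80 to 2.49 times its level in the other cells.

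**Figure D3:**
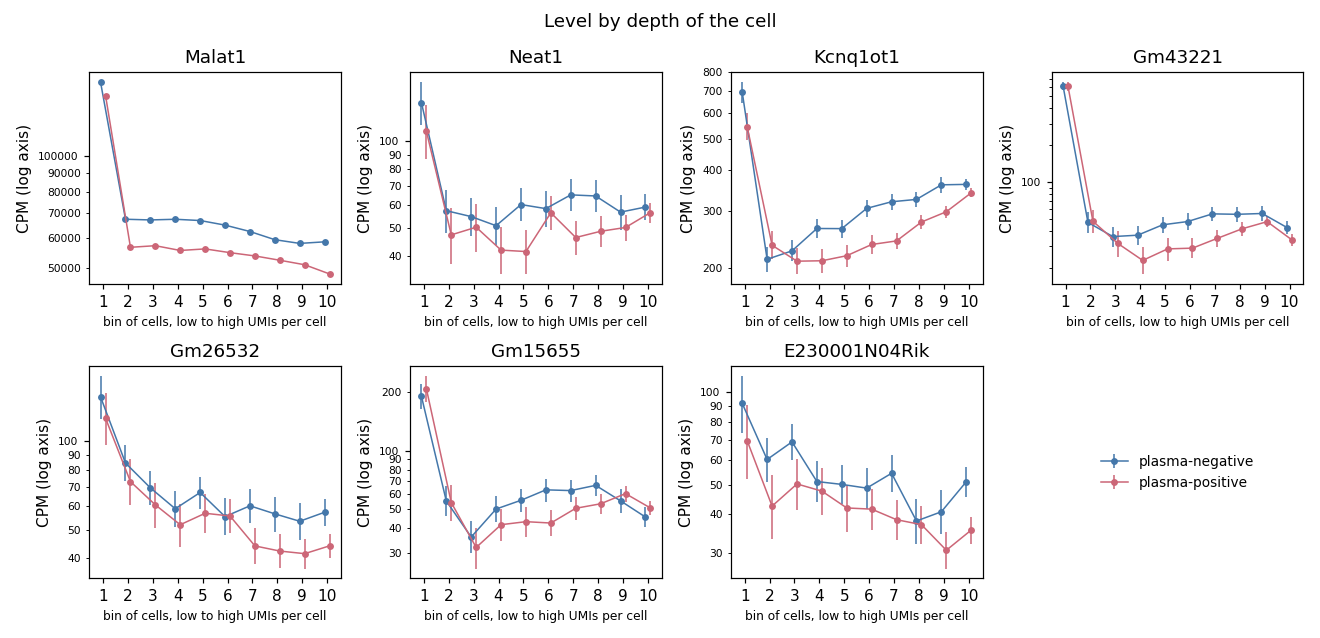
Level of each member (y axis, CPM, log scale) in the 10 bins of cells at the pooled deciles of UMIs per cell (x axis, shallowest to deepest), with 95% Poisson intervals, by library. All 7 members are highest in the first bin in both libraries, and Gm43221 drops furthest, from 611 and 604 CPM to under 60 CPM in every later bin.

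All 7 members were at least 1.5-fold higher in the shallowest than in the deepest bin, in both libraries. Of the genes with at least 50 CPM, mt- genes left out, 18.4% in the plasma-negative and 21.3% in the plasma-positive library were. The log2 ratios for the members were 1.43 and 1.60 for Malat1, 1.21 and 0.94 for Neat1, 0.94 and 0.67 for Kcnq1ot1, 3.85 and 4.17 for Gm43221, 1.30 and 1.44 for Gm26532, 2.05 and 2.02 for Gm15655, and 0.84 and 0.96 for E230001N04Rik. The other 29 long non-coding RNAs at this level did much the same: 21 and 22 of them were at least 1.5-fold higher, whereas 17.8% and 20.7% of protein-coding genes were. The higher level in shallow cells was thus shared by most long non-coding RNAs measured at this level.

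The shallowest bin also differed in other measures, whose part in the members' levels was not tested. Its median cell gave 2.35% and 2.70% of UMIs to mt- genes, against 1.04% and 1.24% in the other cells. Ribosomal protein genes gave 2.19% and 2.44% of its UMIs, against 9.06% and 10.0%. At least 4 microglia markers were found in 98.0% and 98.1% of its cells, and 0 cells held 4 markers of other types. The summed level of the 11 microglia markers was 22876 and 23123 CPM, against 32663 and 30982 CPM.

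The relation to the mitochondrial share of the cell was not a steady slope. Cells of both libraries were divided at the pooled deciles of this share, the lowest bin having under 0.467% and the highest over 2.53%. In the plasma-negative library Malat1 stood at 77676 CPM in the lowest bin, fell to 58388 CPM in bin 9, and stood at 79515 CPM in the highest. In the plasma-positive library Malat1 fell over the same bins from 68520 CPM down to 49009 CPM, with 57541 CPM in the highest. Malat1 was thus lowest in bin 9 of both libraries and higher again in bin 10, which was above the lowest bin only in the plasma-negative library.

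Gm43221 was higher in both end bins than in any bin between them, with 79.6 CPM in the lowest bin, 42.0 to 71.7 CPM in between and 200 CPM (95% interval 179 to 222) in the highest bin of the plasma-negative library. The plasma-positive cells had 86.3, 36.4 to 45.3 and 111 CPM in the same bins. Kcnq1ot1 and Gm15655 were raised in the highest bin of the plasma-negative library, at 416 and 98.3 CPM, against at most 348 and 67.9 CPM in its other bins. The plasma-positive level of Kcnq1ot1 was 280 CPM in that bin, within the range of the other bins. Gm15655 stood there at 68.3 CPM, near the 69.2 CPM of the lowest bin and above the 40.9 to 57.7 CPM in between. In the plasma-negative library its end bins were also above those in between, which ran from 49.7 to 58.7 CPM. Some of these Gm15655 intervals overlap. For Neat1, Gm26532 and E230001N04Rik the interval of the ratio between the end bins included 0 in the plasma-negative library, as it did for Neat1, Kcnq1ot1, Gm15655 and E230001N04Rik in the plasma-positive library.

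**Figure D4:**
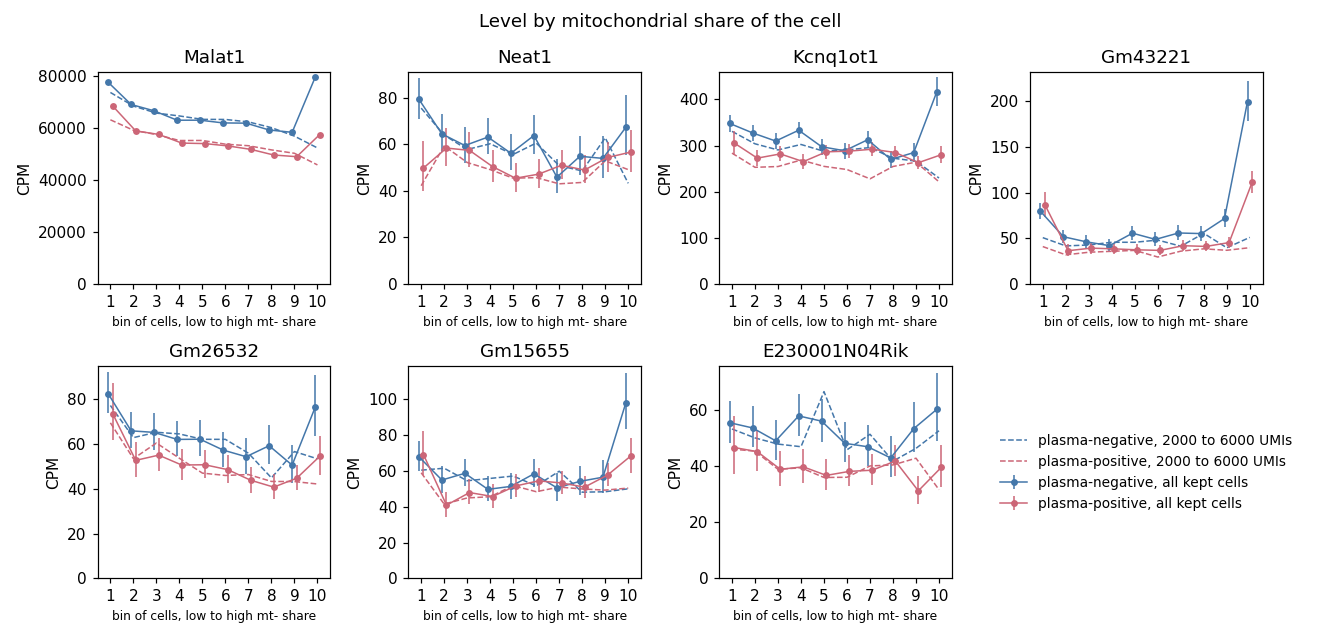
Level of each member (y axis, CPM) in the 10 bins of cells at the pooled deciles of the mitochondrial share (x axis, lowest to highest), by library; points with 95% Poisson intervals are all kept cells, and dashed lines are cells with 2000 to 6000 UMIs, binned anew. With all cells, Gm43221 rises in the last bin to 200 and 111 CPM; among cells of middle depth it stays at 51.0 and 39.8 CPM there and Malat1 falls to its lowest level.

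As a log2 ratio of the lowest over the highest bin, the members stood at -0.03 and 0.25 for Malat1, 0.24 and -0.18 for Neat1, -0.26 and 0.12 for Kcnq1ot1, -1.33 and -0.36 for Gm43221, 0.11 and 0.43 for Gm26532, -0.53 and 0.02 for Gm15655, and -0.12 and 0.24 for E230001N04Rik. The only member past 1.5-fold was Gm43221, lower in the lowest bin of the plasma-negative library. In that library 0.652% of the genes with at least 50 CPM were that much lower, and 5.02% that much higher. For plasma-positive cells, 0 members were, against 1.11% of genes lower and 2.81% higher. These calls changed with the setting. The plasma-negative Gm43221 ratio was -0.01 in cells with 2000 to 6000 UMIs and -0.11 without the shallowest bin, while the plasma-positive one was past 1.5-fold with each library's own deciles (-0.84), with 20 bins (-0.96) and after thinning (-1.42). Gm15655 was past it after thinning in both libraries, at -0.59 and -0.75. The median over all genes was 0.12 and 0.13.

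Depth and mitochondrial share were tied to each other in these cells. In the highest mitochondrial bin 59.0% (plasma-negative) and 42.1% (plasma-positive) of the cells belonged to the shallowest bin, against 14.8% and 19.5% in the lowest bin. When only cells with 2000 to 6000 UMIs were taken and binned anew, Malat1 fell from 73724 CPM in the lowest to 52378 CPM in the highest bin of the plasma-negative library. The plasma-positive values were 63206 and 45848 CPM. The bin with the highest mitochondrial share was now the one with the least Malat1 of all 10, in both libraries. Spearman's rho over single cells between the Malat1 share and the mitochondrial share was -0.25 and -0.21 among these cells, against -0.08 and -0.09 over all cells. These cells share a library, so the values are descriptions.

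At middle depth Kcnq1ot1 followed Malat1, from 331 to 230 CPM and from 284 to 221 CPM. Gm26532 went from 77.3 to 53.4 CPM and from 69.5 to 42.2 CPM. Gm43221 had overlapping intervals in the end bins, at 50.7 CPM (95% interval 43.4 to 58.9) and 51.0 CPM (41.7 to 61.7) in plasma-negative cells. The plasma-positive levels were 41.0 CPM (31.7 to 52.1) and 39.8 CPM (33.6 to 46.7). Gm15655 stood at 60.5 and 50.02 CPM and at 59.0 and 50.4 CPM, with overlapping intervals. E230001N04Rik stood at 53.1 and 52.5 CPM in plasma-negative cells and at 45.9 and 31.5 CPM in plasma-positive cells. For Neat1 the libraries differed, with 75.5 and 43.2 CPM in the plasma-negative but 42.2 and 49.1 CPM in the plasma-positive library.

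Over single cells thinned to 1000 UMIs, the highest correlations between members were those with Malat1. Pearson's r between Malat1 and Gm43221 was 0.22 and 0.24 over 9064 and 9759 cells, and that between Malat1 and Kcnq1ot1 was 0.18 and 0.17. Not all pairs with Malat1 led: in the plasma-negative library Kcnq1ot1 with Gm43221 (0.07) stood above Malat1 with Gm26532 (0.06). The median over all 21 pairs was 0.03 in each library, and sparse counts hold such values down. Pairs without the abundant Malat1 are sparse on both sides, so nothing is read from the order of the pairs. Among 4903 genes with a UMI in at least 10% of cells, on the log scale, Malat1 was most alike to Son (mean r 0.35), which encodes a scaffold of the nuclear speckles, to Mef2a (0.31), a transcription factor gene, and to AC149090.1 (0.28). It was most opposed to Tmsb4x (-0.45), which encodes an actin-binding peptide. Kcnq1ot1 was most alike to Malat1 (0.17), Mef2a (0.13) and Macf1 (0.12), and Gm43221 to Malat1 (0.21), AY036118 (0.16) and Son (0.14). On thinned counts Mef2a (0.26) stood above Son (0.24) and AC149090.1 (0.23) for Malat1. Hnrnpa2b1 (0.08) took the place of Macf1 for Kcnq1ot1, and Gm42418 (0.14) that of Son for Gm43221.

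For Gm15655 the most alike genes on the log scale were Gm26778 (0.13), Maf (0.12) and Mef2a (0.10). On thinned counts they were Malat1 (0.10), Maf (0.07) and Gm26778 (0.07). Neat1 was most alike on the log scale to Malat1 (0.098), Zeb2 (0.08) and Mef2a (0.08). Gm26532 was nearest to Malat1 (0.07), Rsrp1 (0.05) and Pnisr (0.04), and E230001N04Rik to Ptpn1, Fyb and Malat1 (0.06 each). In the last 3 members no gene reached 0.1, and such weak values are no finding. On thinned counts Malat1 was the nearest gene to each of these 3, and the other genes named for them were not among the 3 nearest.

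Malat1 was lower in cells that carried transcripts of several known microglial responses. Cells with at least 3 UMIs of a list after thinning were set against cells with 0. With Apoe, a lipid carrier raised in reactive microglia, Malat1 stood at 52286 CPM in 133 plasma-negative cells, against 67885 CPM in 8365 cells without. Among plasma-positive cells it stood at 44501 CPM in 665 cells, against 57208 CPM in 7946. The log2 ratios were -0.38 and -0.36. The cells with Apoe had a higher median mitochondrial share, 1.504% against 1.04% and 1.69% against 1.21%, and its part in the result was not tested. These classes are ranges and not types: 51 of the 133 and 134 of the 665 cells had exactly 3 UMIs, and 121 and 250 further cells had 2.

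In cells with cell cycle transcripts Malat1 stood at 52000 CPM (22 cells) and 32912 CPM (57 cells), with log2 ratios of -0.38 and -0.78. In cells with the chemokine transcripts Ccl3 and Ccl4 it stood at 46941 CPM (17 cells) and 43364 CPM (33 cells), with log2 ratios of -0.52 and -0.37. With interferon-induced transcripts the ratios were smaller, -0.08 and -0.20. With immediate early transcripts, which are induced within minutes of stimulation, they were -0.02 and 0.03. All these ratios have counting intervals that exclude 0, but each ratio comes from 1 library, and the cell cycle and chemokine classes hold few cells. Such intervals leave out the spread between cells, and the variance of Malat1 over thinned cells was 14.8 and 15.5 times the mean. They are thus too narrow for a contrast of cell classes, and nothing is read from the small interferon and immediate early ratios. The cells with cell cycle transcripts had a median of 3570 UMIs, against 3369 without, and of 4854 against 3839 in the plasma-positive library, where their mitochondrial share was 1.49% against 1.26%. Those with Ccl3 and Ccl4 had 4661 against 3381 and 4583 against 3849 UMIs, with a plasma-positive mitochondrial share of 1.80% against 1.25%. The part of depth and of this share in these ratios was not tested.

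The other members gave few UMIs in these classes. Contrasts are named here only where the counting interval of the ratio excluded 0 in a library, beside the same contrast in the other library. In all remaining contrasts of these members the interval included 0 or a class gave no UMI. The named contrasts were thus picked from many by their values, with intervals too narrow for classes of cells, and no pattern is read from them. In plasma-positive cells with Apoe, Gm43221 gave 13 UMIs (19.5 CPM, 95% interval 10.4 to 33.4), against 51.5 CPM without. Gm26532 gave 17 UMIs (25.6 CPM, 14.9 to 40.9), against 51.9 CPM, and Kcnq1ot1 stood at 205 CPM (172 to 242), against 268 CPM. Gm15655 gave 23 UMIs (34.6 CPM, 21.9 to 51.9), against 55.2 CPM. In the plasma-negative library the intervals of these 4 ratios included 0. With interferon-induced transcripts Gm15655 gave 20 UMIs in plasma-positive cells (37.2 CPM, 22.7 to 57.5), against 58.4 CPM. In the plasma-negative library it gave 10 UMIs (56.8 CPM, 27.2 to 104), against 61.1 CPM. With immediate early transcripts Gm26532 stood at 78.1 CPM (60.3 to 99.6), against 46.7 CPM without, in the plasma-positive library. The plasma-negative values were 68.5 CPM (52.4 to 88.0) and 62.9 CPM, with overlapping intervals. Gm43221 stood at 39.7 CPM (27.3 to 55.7) with these transcripts in the plasma-positive library, against 59.9 CPM without. Its plasma-negative level was 52.8 CPM (38.8 to 70.2), against 65.1 CPM. Gm15655 stood at 44.9 CPM (32.1 to 61.2) in the plasma-negative library, against 63.4 CPM, and at 50.5 CPM (36.4 to 68.2) in the plasma-positive one, against 55.4 CPM. Kcnq1ot1 gave 17 UMIs in the 33 plasma-positive cells with Ccl3 and Ccl4 (515 CPM, 300.1 to 825), against 261 CPM without. Only 4 of its UMIs fell in the 17 such plasma-negative cells (235 CPM, 64.1 to 602), against 302 CPM.

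The nearest protein-coding genes of the members mostly stayed level or were too low to compare. Frmd8, which lies beside Neat1, stood at 26.5 and 25.3 CPM, with a log2 ratio between the libraries of -0.07 and an interval that includes 0. Kcnq1 itself gave 0 and 1 UMI. Cdkn1c, a cell cycle inhibitor gene of the same imprinted domain, stood at 26.2 and 24.0 CPM (log2 ratio -0.12, 95% interval -0.26 to 0.01). Fam102b, around Gm43221, stood at 396 and 401 CPM (0.02, -0.01 to 0.05). Maf stood at 1083 and 991 CPM, with the same log2 ratio as Gm15655, -0.13. Fkbp5, beside E230001N04Rik, stood at 46.3 and 44.7 CPM, and Zswim4, beside Gm26532, at 4.55 and 4.12 CPM.

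Genes of the nuclear bodies that Malat1 and Neat1 belong to were mostly lower in the plasma-positive library as well. Of the 27 speckle and SR protein genes compared, 23 were lower, with a median log2 ratio of -0.14. Son stood at 1184 and 1075 CPM (-0.14), Rbm39 at 790 and 709 CPM (-0.16) and Srrm2 at 720 and 683 CPM (-0.08). Of 18 paraspeckle protein genes, 15 were lower, with a median of -0.08, among them Sfpq (-0.12), while Hnrnpk stood at 0.02. Over all 8355 genes with at least 10 CPM, 5370 were lower and the median was -0.04. The scaling that moved the median of the genes with at least 50 CPM most, TMM, moved it by 0.04.

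Genes of the ribosome and of mitochondrial respiration stood on the other side. All 79 ribosomal protein genes compared were higher in the plasma-positive library (median 0.16), as were 13 of 13 mt- genes (median 0.26) and 71 of 77 nuclear genes of oxidative phosphorylation (median 0.10). These shares belong to the same total of UMIs as Malat1, so the higher shares and the lower Malat1 share are not independent values. Without mt- and ribosomal protein genes in the total, the Malat1 log2 ratio was -0.26. Of 7 other nuclear or regulatory long non-coding RNAs compared, 5 were lower (median -0.09), and of 5 snoRNA host and cytoplasmic ones, 4 were (median -0.07). Tug1 stood at 85.7 and 79.0 CPM (-0.12), Snhg20, a snoRNA host gene, at 91.0 and 76.7 CPM (-0.25), and Gm42418 at 1994 and 2116 CPM (0.09). Of 5 genes compared in the imprinted domain around Kcnq1ot1, 2 were lower and 3 higher, with a median of 0.03. The most abundant, Cd81, which encodes a membrane protein of the tetraspanin family, stood at 2789 and 3007 CPM (0.11).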

How the data were processed

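Per library, the authors deposited 1 matrix of raw UMI counts. Its header, per the file headers, names Cell Ranger 6.1.2, and the submitters' processing notes name Cell Ranger 3.0.1. The genome build, the annotation, and the use of strand and of intronic reads are not given in the sources used here. A cell was kept with 500 UMIs or more, 300 genes or more and no more than 10% mt- UMIs. No doublet caller was run; leaving out the highest-UMI cells of each library (779 and 861) was an alternative. Counts were summed per library, bin or class and divided by the total (CPM), with exact Poisson, Clopper-Pearson or conditional binomial 95% intervals, which cover counting error only (Python 3.11.15, scipy 1.17.1, numpy 2.4.6, pandas 2.3.3; edgeR 4.0.16 only for TMM library sizes). The intervals were tested on library sums simulated with counting error only, so that test could not show whether they cover spread between cells. Thinning was tested on some of the plasma-negative cells. No test between groups was possible with 1 library each. Of 31053 gene identifiers, 30934 were found in GENCODE M21, which gave positions, classes and transcript sequences. The members, gene lists and comparisons were chosen with earlier results of these data known. Named genes were the 7 members, up to 3 most abundant genes of each list, the 3 genes most alike to each member and the neighbouring protein-coding genes, some of which are not reported here; results of 12 alternative settings for the library ratio stand in the closing section. AC149090.1 has no class in the annotation used.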

Additional observations from a re-analysis of the deposited data

Results flagged for a closer look

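For 5 members the direction of the difference between the lowest and the highest mitochondrial bin was opposite in the 2 libraries, and these differences between libraries were not tested. The log2 ratio of lowest over highest bin was -0.034 in the plasma-negative and 0.25 in the plasma-positive library for Malat1. It was 0.24 and -0.18 for Neat1, -0.26 and 0.12 for Kcnq1ot1, -0.53 and 0.02 for Gm15655, and -0.12 and 0.24 for E230001N04Rik. The counting interval included 0 in both libraries for Neat1 and E230001N04Rik, and in the plasma-positive library for Kcnq1ot1 and Gm15655. Only for Malat1 did it exclude 0 in both, and the plasma-negative Malat1 interval of -0.043 to -0.024 lay close to 0. The highest bin was shallower in the plasma-negative library, with a median of 1134.5 UMIs against 1883, and the part of depth in the opposite signs was not tested. Among cells with 2000 to 6000 UMIs, Malat1, Kcnq1ot1, Gm15655 and E230001N04Rik were higher in the lowest bin in both libraries, but the interval of the ratio included 0 for Gm15655 in both and for E230001N04Rik in the plasma-negative library.

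Cells left out for more than 10% mt- UMIs were not part of the comparisons, and for 3 members the 95% Poisson interval in them lay above the level of the kept cells in both libraries. There were 17 such plasma-negative cells and 28 such plasma-positive cells, with a median of 707 and 688.5 UMIs. Malat1 stood at 137024 and 133911 CPM, Kcnq1ot1 at 1176 and 792 CPM, from 17 UMIs in each library, and Gm43221 at 415 and 279 CPM, from 6 UMIs in each. Neat1 (208 and 186 CPM, from 3 and 4 UMIs), Gm26532 (208 and 140 CPM, from 3 UMIs in each) and E230001N04Rik (69.2 and 93.1 CPM, from 1 and 2 UMIs) were also above their kept-cell levels, with intervals that include those levels. Gm15655 gave 0 and 3 UMIs. Kept cells of nearer depth, the shallowest bin with a median of 842 and 854.5 UMIs, had more Malat1 than the cells left out, at 158019 and 145460 CPM. Gm43221 stood at 611 and 604 CPM in that bin, also above the cells left out, and Kcnq1ot1 at 696 and 545 CPM, below them. For both of these the intervals of the cells left out include those levels.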

How the results depend on the processing

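No paired analysis was possible because 1 library stood for each sort, and for the same reason no library could be left out. All 7 members stayed lower in the plasma-positive library under the main setting and the 12 alternatives; E230001N04Rik ran from -0.50 to -0.34 and Gm15655 from -0.17 to -0.09. The Malat1 log2 ratio of -0.28 was -0.24 with TMM library sizes, -0.26 without mt- and ribosomal protein genes in the total, -0.30 without the 7 members, -0.27 in cells with at least 1000 UMIs, -0.29 as a mean over cells, -0.26 thinned to 1000 UMIs, -0.25 as a mean over mitochondrial bins, and, in settings added after seeing the data, -0.23 as a mean over depth bins, -0.25 in cells with 2000 to 6000 UMIs and -0.27 without the shallowest bin. Malat1 fell short of 1.2-fold in 6 of the 12: with TMM, without mt- and ribosomal protein genes, after thinning, over either kind of bins and with 2000 to 6000 UMIs. Neat1 (-0.24) was past it in 5, with values down to -0.30. The number of genes at least 1.2-fold lower, 23, was 9 with TMM, 14 without mt- and ribosomal protein genes, 35 as a mean over cells, 60 after thinning, 13 over mitochondrial bins, 193 at a minimum of 10 CPM and 3 at 200 CPM. The number at least 1.2-fold higher, 24, was 45 with TMM, 110 at 10 CPM and 11 at 200 CPM. The cause was not tested, save that the minimum sets how many genes are compared.

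Between the lowest and highest mitochondrial bin, Malat1 in the plasma-negative library (-0.03) turned to 0.055 with each library's own deciles, 0.14 with 5 bins, 0.030 after thinning, 0.32 with at least 1000 UMIs, 0.49 with 2000 to 6000 UMIs and 0.51 without the shallowest bin. Kcnq1ot1 there (-0.26) turned to 0.014 with 5 bins, 0.16 with at least 1000 UMIs, 0.53 with 2000 to 6000 UMIs and 0.41 without the shallowest bin, and Gm15655 (-0.53) to 0.27 with 2000 to 6000 UMIs. In the plasma-positive library, 20 bins gave -0.053 for Malat1 and -0.014 for Gm26532, and Gm43221 (-0.36) turned to 0.043 with 2000 to 6000 UMIs and 0.092 without the shallowest bin. Past 1.5-fold, the plasma-negative library lost Gm43221 (-1.33) at -0.01 with 2000 to 6000 UMIs and -0.11 without the shallowest bin. It gained Gm15655 at -1.12 with 20 bins, -0.61 without mt- and ribosomal protein genes and -0.59 after thinning, and gained Neat1, Gm26532 and Kcnq1ot1 in 2, 2 and 1 of 9 settings. The plasma-positive library gained Gm43221 at -0.84 with each library's deciles, -0.96 with 20 bins and -1.42 after thinning, Gm15655 at -0.75 after thinning, Gm26532 in 2 settings and E230001N04Rik in 1. The Malat1 ratio with immediate early transcripts in that library (0.03) was -0.011 at a limit of 2 UMIs. Genes at least 1.5-fold lower in the lowest bin of the plasma-negative library, 23, were 11 with 5 bins, 166 with 20, 41 without mt- and ribosomal protein genes, 84 after thinning, 37 without the highest-UMI cells, 39 without the shallowest bin and 202 at 10 CPM; those higher, 177, were 10, 652, 89 and 350 under the first 4 of these, 80 with at least 1000 UMIs, 82 with 2000 to 6000 UMIs, 94 without the shallowest bin and 787 at 10 CPM. In the plasma-positive library, those lower, 39, were 12, 99, 85 and 113 under the same 4 and 200 at 10 CPM, and those higher, 99, were 3, 467, 37 and 317, then 64 with at least 1000 UMIs, 47 with 2000 to 6000 UMIs, 63 without the shallowest bin and 617 at 10 CPM. The 6 sparser members rest on 1627 to 11793 UMIs per library, which limits their bins and classes.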

Other observations

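The long non-coding RNAs outside the members that reached 50 CPM held further genes of the same kind. In the plasma-positive library 21 of these 29 were lower, with a median log2 ratio of -0.12, and 4 were at least 1.2-fold lower. Chosen after seeing their values, these were 2810405F17Rik (-0.29), Gm10138 (-0.27), Gm26699 (-0.27) and 3222401L13Rik (-0.27). All 4 ratios lie close to that of Malat1 (-0.28), which fell short of 1.2-fold in 6 of the 12 alternative settings. Their own values in those settings are not reported here, so these calls may depend on the scaling. In the other direction, Gm10076 stood at 163 and 189 CPM (0.22).

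Several of them were also high in the shallowest cells, chosen here by their size. AY036118 had a log2 ratio of shallowest over deepest bin of 3.49 and 3.41, Gm26699 of 2.41 and 2.68, and B430010I23Rik of 2.33 and 2.49. Gm31243 had 2.05 and 2.56, Gm26778 had 2.15 and 1.82, and Adap2os had 1.90 and 2.01. Gm10076 went the other way, with -2.02 and -2.42, as did 6 and 6 of the 29 in all.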
